A study of Mus musculus with 4 samples.

Results

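The genes of mitochondrial fatty acid oxidation and of its control by PPAR receptors were followed through the colon and its sorted epithelium. They were the carnitine palmitoyltransferases Cpt1a and Cpt2, the acyl-CoA dehydrogenases Acadm, Acadl and Acadvl, the trifunctional protein subunit Hadha, the receptors Ppara and Pparg, and the PPAR target Angptl4. These 9 genes were chosen by symbol, through the gene probes that carry their names, and Angptl4 was put on the list because it had been seen higher in both Rspo3 KO pairs. They are covered by 12 of 41174 gene probes, and all 9 were measured in both experiments, among 15372 genes in the Rspo3 KO experiment and 15879 genes in the Axin2 experiment. No enzyme of ketone body synthesis is among them, so that pathway was read from a separate list.

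Colon RNA of Rspo3 KO and control mice and sorted colon epithelium were studied, all from C57BL/6 mice. In the Rspo3 KO experiment, Myh11CreErt2/Rspo3 fl/fl mice (Rspo3 KO) were set against Myh11CreErt2/Rspo3+/+ littermates (labelled Rspo3++), 2 weeks after tamoxifen was injected on 3 days at 4 mg per 25 g bodyweight. Myh11 drives the Cre in smooth muscle cells and myofibroblasts, so the deletion lies in the stroma, and the controls carry the same Cre and had the same tamoxifen. The labels name distal colon as the tissue. The paper's array methods speak of RNA from the colon, and its gene set methods of isolated colon epithelium. Each of the 2 arrays held 1 Rspo3 KO and 1 control mouse, with the dyes reversed between the arrays, which gives 2 pairs of mice. In the Axin2 experiment, Axin2CreErt2/Rosa26-tdTomato mice were used 24 h after tamoxifen, and epithelial cells were sorted into tdTomato+ (Axin2+) and tdTomato- (Axin2-) cells, pooled from 3 mice. These 2 pools were hybridised on 2 arrays with reversed dyes, so the arrays are technical repeats of 1 replicate and nothing was tested on them.

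Colonocytes draw much of their energy from fatty acids, above all butyrate. Long-chain acyl groups are handed to carnitine by Cpt1a at the outer mitochondrial membrane, carried inward by the translocase Slc25a20, and handed back to coenzyme A by Cpt2. Acyl-CoA dehydrogenases of different chain-length preference then start each round of beta-oxidation, and the trifunctional protein completes it for long chains. Ppara and Pparg are nuclear receptors that bind fatty acids as partners of RXR and switch on such genes. Angptl4 is a secreted inhibitor of lipoprotein lipase (Lpl) and a widely shared PPAR target.

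Since each ratio is only as specific as the probe behind it, the first 30 bases of the probes that decide the results on Angptl4, Cpt1a and Hadha are shown 5′ to 3′, as the array files list them. Positions are those of mm9 in the same files, and no transcript annotation of that build was used here. The Angptl4 probe lies on the minus strand at chr17:33911880-33911939, and each array carried it in a single spot. The first Cpt1a probe lies at chr19:3385374-3385433 and the second at chr19:3384629-3384688, both on the plus strand. The 3 Hadha probes lie on the minus strand at chr5:30446215-30446274, chr5:30473804-30473863 and chr5:30480638-30480697, in the order printed, the first for the RefSeq transcript NM_178878 and the other two for cDNA clones.
Angptl4, A_51_P338443: atggtgctgttgtaggtgctgtggatgcac
Cpt1a, A_51_P427674: tcttaggactacttgctaacctctgttact
Cpt1a, A_52_P219753: cagttccattaagcaacaaaataacagatg
Hadha, A_52_P193029: ggaagcaggaaaaagaccaaggctagcctt
Hadha, A_52_P338459: atttctaccaactacagttatgagtcgtat
Hadha, A_52_P658044: cccaaatctgtaagggcaaatgtaacttca

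Promoters were read from RefSeq (GRCm38.p6) as the 250 bases before the annotated start. Windows were available for 8 of the 9 members, 10 in all since Pparg has several starts. Angptl4 had no window, so its promoter was not read. Members are counted per gene, with any window of Pparg, while the shares are per promoter. The whole PPAR element AGGTCANAGGTCA was looked for on both strands. It was in none of the member windows and in 0.0335% of 32851 promoters. Its half-site AGGTCA was in a window of 4 members (Cpt1a, Acadm, Acadvl and Pparg) and in 14.0% of all promoters. The GC box GGGCGG was in a window of 6 members and in 32.7% of all promoters. A match to such short letters is not a binding site, and a missing match says nothing about the receptor, whose elements can lie elsewhere. The windows of 3 genes are shown for results given below. Hadha and Hadhb, which encode the subunits of 1 protein, are transcribed away from each other, with starts 273 bases apart and windows that share 228 bases. The Hadhb window (chr5:30155003-30155252, plus strand, the opposite strand reading towards Hadha) has its 2 GC boxes in capitals. The Cpt1a window (chr19:3323051-3323300, plus strand) has its half-site in capitals, on the reverse strand. The Acadl window (chr1:66863310-66863559, minus strand) belongs to the member that was lowest in Axin2+ cells, and its 4 GC boxes, all on the reverse strand, are in capitals.
Hadhb: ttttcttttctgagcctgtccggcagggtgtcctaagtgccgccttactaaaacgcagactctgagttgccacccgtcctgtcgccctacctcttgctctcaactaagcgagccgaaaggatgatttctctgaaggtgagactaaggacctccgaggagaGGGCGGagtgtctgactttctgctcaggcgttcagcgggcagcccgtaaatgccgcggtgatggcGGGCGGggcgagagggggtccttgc
Cpt1a: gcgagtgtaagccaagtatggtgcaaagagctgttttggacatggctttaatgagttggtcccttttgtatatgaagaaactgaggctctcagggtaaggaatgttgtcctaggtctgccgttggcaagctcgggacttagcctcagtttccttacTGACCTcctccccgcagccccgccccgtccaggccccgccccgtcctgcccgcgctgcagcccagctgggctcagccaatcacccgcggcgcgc
Acadl: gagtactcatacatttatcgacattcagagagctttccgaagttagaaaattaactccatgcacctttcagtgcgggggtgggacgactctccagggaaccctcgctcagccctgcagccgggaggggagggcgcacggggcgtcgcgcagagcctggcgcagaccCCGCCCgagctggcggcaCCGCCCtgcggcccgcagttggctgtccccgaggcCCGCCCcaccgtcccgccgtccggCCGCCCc

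Between 53.1% and 60.3% of gene spots were well above background per channel. The label check rests on weak signal: the Rspo3 probes were not well above background in pair 1, and the only one that was, in pair 2, had a log2 ratio of Rspo3 KO over control of 0.17, so a loss of Rspo3 was not shown by these probes. At its brighter probe Lgr5, a stem cell marker, was well above background in both controls and in neither Rspo3 KO mouse. In the sorted cells, Axin2 itself was higher in Axin2+ cells, by 1.35 and 1.30 on the log2 scale, and Epcam, an epithelial surface protein, differed by 0.04 and 0.03.

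The fatty acid oxidation genes differed little between Rspo3 KO and control colon, apart from Angptl4, and the 2 pairs rarely showed the same size. Log2 ratios of Rspo3 KO over control were above 0 in both pairs for 6 of 9 members, below 0 in both for 1 (Acadvl) and of opposite sign for the PPAR receptors. Over all genes, 20.3% were above 0 in both pairs, 23.9% were below 0 in both and 55.8% had opposite signs. The 2 pairs' ratios were almost unrelated across genes (r = 0.03). The members' median log2 ratio was 0.18 in pair 1 and 0.09 in pair 2, against all-gene medians of -0.0025 and -0.02. Only Angptl4 passed 1.5-fold in the mean and ran the same way in each pair (1 of 9, where 4.32% of all genes did so, 1.85% upward and 2.47% downward). None of the 9 was called by limma at an adjusted p of 0.05, as were 0.241% of all genes, and 1 (Angptl4) had an unadjusted p below that value, as had 4.64% of all genes. Since this contrast was used to choose the members, these counts are descriptive and nothing is read from them.

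**Figure D1:**
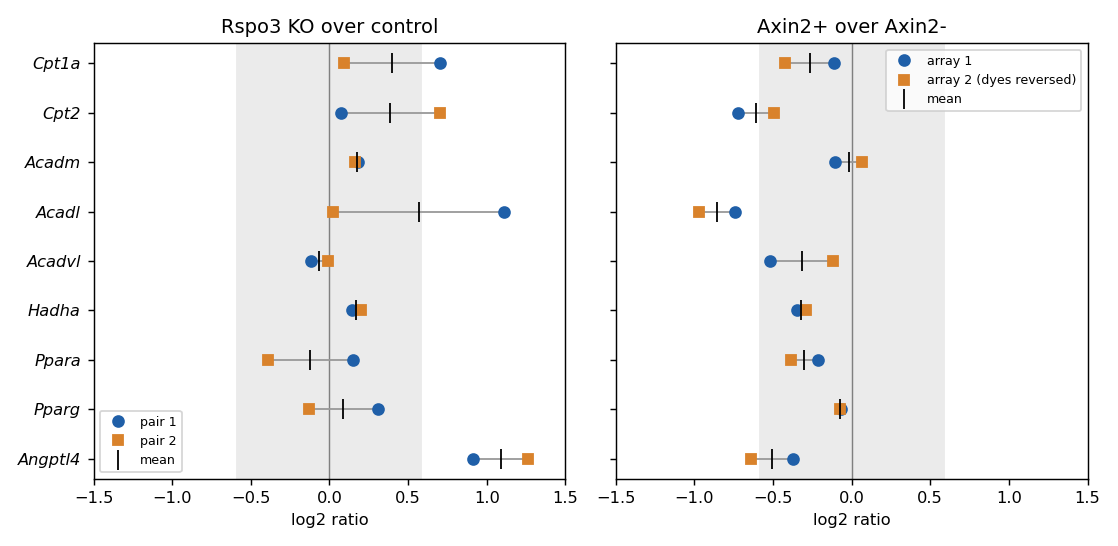
Log2 ratio (x axis) of each of the 9 genes (y axis) on the 2 arrays of each experiment: circles are pair 1 or array 1, squares are pair 2 or array 2, ticks are their mean, and grey marks changes under 1.5-fold. Angptl4 lies above the grey band in both Rspo3 KO pairs (0.92 and 1.26), Acadl spans 0.02 to 1.11, and all means lie below 0 in Axin2+ over Axin2- cells.

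Angptl4 was the member with the widest difference between Rspo3 KO and control. Its level, as log2 normalised intensity, was 12.74 in the Rspo3 KO mouse and 11.82 in the control of pair 1, and 10.35 in the Rspo3 KO mouse and 9.09 in the control of pair 2. Each Rspo3 KO mouse was above its own control, yet the groups overlapped, since the control of pair 1 lay above the Rspo3 KO mouse of pair 2. The log2 ratio was 0.92 in pair 1 and 1.26 in pair 2, with a mean of 1.09 ± 0.25 (SD, n = 2), a 2.13-fold difference. Angptl4 was put on the list for being higher in both pairs, so the size of this difference is a description and not a test. The pairs themselves were further apart than Rspo3 KO and control. Averaged over both mice, Angptl4 was 2.56 higher in pair 1 than in pair 2 on the log2 scale, a gap that 7 other genes of the 15372 exceeded.

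Cfd, the adipocyte serine protease adipsin, and Cidec, a protein of the fat droplet surface, were among the genes with a still wider gap (5.91 and 2.62). The list of 8 adipocyte markers (Adipoq, Lep, Plin1, Retn, Cfd, Cidec, Adrb3, Thrsp) was therefore read in every mouse, whether or not it passed the filter. In pair 1, 6 of 8 were well above background in both mice. In pair 2, 2 of 8 were so in the Rspo3 KO mouse and 3 of 8 in the control. The summed normalised intensity of the 8 probes was 21348 in the Rspo3 KO mouse and 8966 in the control of pair 1, and 785 and 1055 in pair 2. The sum is linear and includes probes not well above background. In pair 1 most of it came from Cfd alone, at 14.07 in the Rspo3 KO mouse and 12.72 in the control. Cfd was also the marker that differed most in pair 2, so the sums do not describe the 8 genes evenly. Adipoq (adiponectin) was at 10.35 and 8.58 in pair 1, and Plin1 (perilipin) at 8.57 and 8.10, while both were not well above background in either mouse of pair 2. Lep and Adrb3 were not well above background in any of the 4 mice. In pair 1 the adipocyte genes thus moved in the same direction as Angptl4, and the part they had in that pair's ratio was not tested. In pair 2, where Angptl4 was 1.26 higher in the Rspo3 KO mouse, 5 of 8 markers were not well above background in either mouse. Cfd was well above it in the control alone, at 8.57 against 6.39 in the Rspo3 KO mouse. The markers measured in both mice of that pair were Cidec, with a log2 ratio of -0.11, and Thrsp, with 0.31. In tissue RNA, fewer cells of a type and less RNA per cell cannot be told apart.

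**Figure D2:**
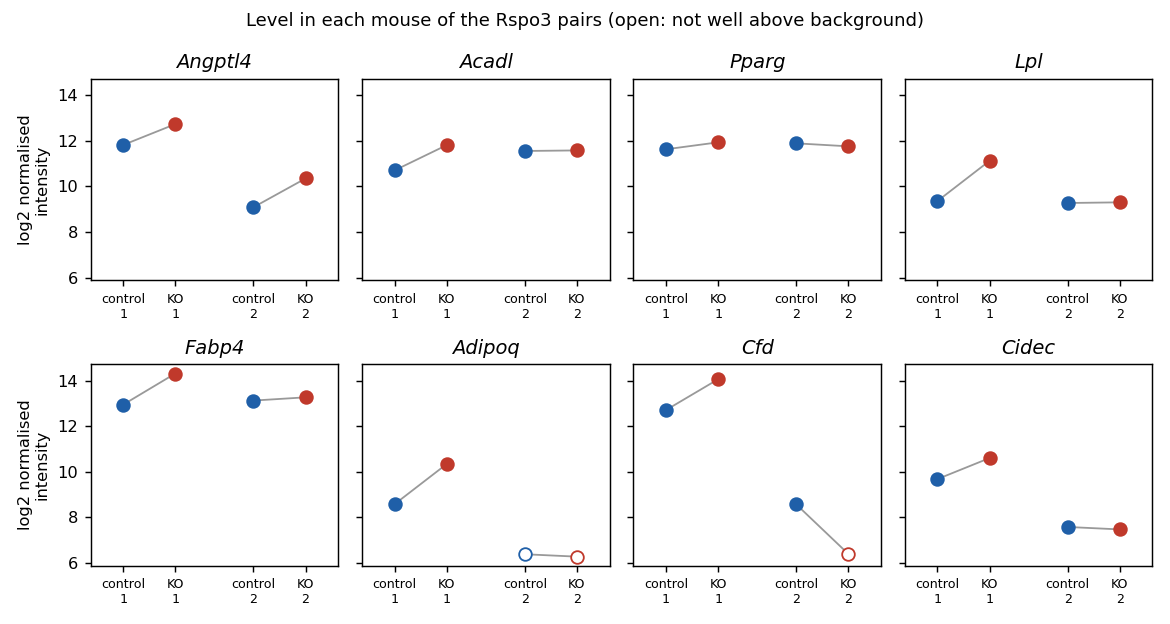
Log2 normalised intensity (y axis) in each of the 4 mice of the Rspo3 pairs (x axis), lines joining the mice of a pair and open circles marking probes not well above background. Angptl4 is higher in the Rspo3 KO mouse of both pairs. Lpl, Fabp4, Adipoq and Cidec are higher in the Rspo3 KO mouse of pair 1 and have log2 ratios between -0.11 and 0.14 in pair 2. Neither Adipoq channel of pair 2 is well above background. Cfd has log2 ratios of 1.35 in pair 1 and -2.18 in pair 2, where it is not well above background in the Rspo3 KO mouse.

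For Cpt1a and Cpt2, 1 of the 4 channel levels stood apart, and mouse, dye and array cannot be told apart there. Cpt1a, the entry step, was at 12.40 in the Rspo3 KO mouse and 11.70 in the control of pair 1, and at 12.52 and 12.43 in pair 2, so that the control of pair 1 was the low one. Its log2 ratios were 0.70 and 0.09 (mean 0.40 ± 0.43, SD, n = 2). Cpt2, the inner-membrane enzyme, was at 13.69 and 13.62 in pair 1 and at 14.27 and 13.57 in pair 2, so that here the Rspo3 KO mouse of pair 2 was the high one. Its log2 ratios were 0.07 and 0.70 (mean 0.39 ± 0.45, SD, n = 2). The means of both genes were smaller than the SD between pairs.

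The repeated spots give the spread between spots of 1 array. They leave out the error of labelling, dye and array, and the spread between mice. On the 2 Axin2 arrays, which held the same RNA, Cpt1a stood at -0.11 and -0.42, with spot SDs of 0.02 and 0.03. The first Cpt1a probe was printed 10 times on every array, and its spots had an SD of 0.05 in pair 1 (8 spots used) and 0.04 in pair 2. Over these spots the log2 ratio ran from 0.64 to 0.79 in pair 1 and from 0.01 to 0.16 in pair 2. The second Cpt1a probe gave 0.69 and 0.27. Ppara and Pparg, also printed 10 times, had spot SDs between 0.04 and 0.10 on the Rspo3 KO arrays.

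**Figure D3:**
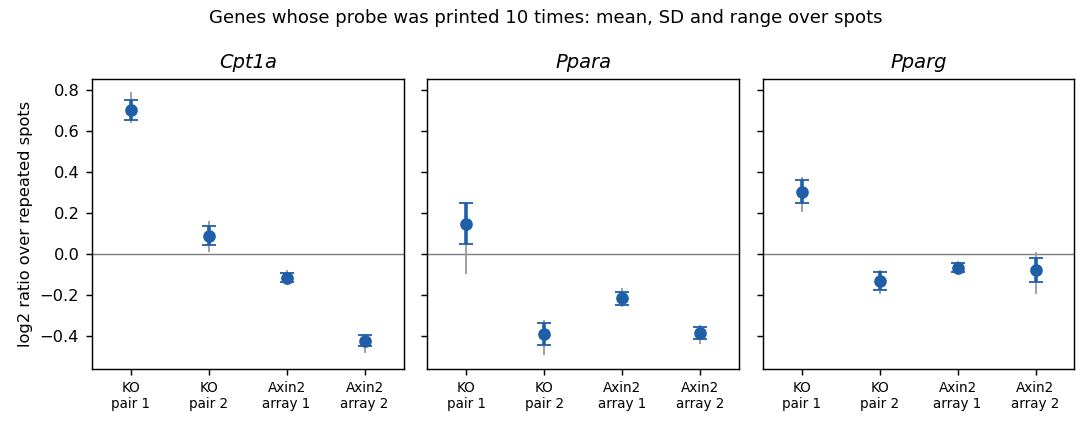
Log2 ratio (y axis) of Cpt1a, Ppara and Pparg on the 4 arrays (x axis), as the mean over the spots in use, with bars for the SD over spots and thin lines from the lowest to the highest spot. Spots of an array lie close together, and Cpt1a stands at 0.70 in pair 1 and 0.09 in pair 2.

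Of the acyl-CoA dehydrogenases, Acadl, the long-chain enzyme, differed in 1 pair only. It was at 11.82 in the Rspo3 KO mouse and 10.71 in the control of pair 1, and at 11.58 and 11.56 in pair 2. The control of pair 1 was again the low one of the 4 channel levels, and mouse, dye and array cannot be told apart there. The log2 ratios were 1.11 and 0.02 (mean 0.57 ± 0.77, SD, n = 2). Acadm, the medium-chain enzyme, had nearly the same log2 ratio in both pairs, 0.18 and 0.16 (mean 0.17 ± 0.02, SD, n = 2), with levels from 13.50 to 13.85 over the 4 mice. Acadvl, the very-long-chain enzyme, had ratios of -0.12 and -0.01, with levels from 14.39 to 14.63.

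Hadha, the subunit with the hydratase and dehydrogenase activities, had log2 ratios of 0.14 and 0.20 at the RefSeq probe (mean 0.17 ± 0.04, SD, n = 2). The clone probe A_52_P658044 gave -0.36 and 0.11, but it was not well above background in the Rspo3 KO mouse of pair 1. The clone probe A_52_P338459 did not pass the filter on dim signal in this experiment. Hadhb, the thiolase subunit encoded across the shared promoter, had ratios of 0.30 and 0.24. At these probes both subunits were above 0 in both pairs, by less than 1.5-fold.

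Both PPAR receptors were above 0 in pair 1 and below 0 in pair 2. Ppara was at 7.91 in the Rspo3 KO mouse and 7.76 in the control of pair 1, and at 8.05 and 8.43 in pair 2, with log2 ratios of 0.15 and -0.39. Pparg was at 11.94 and 11.63 in pair 1 and at 11.76 and 11.90 in pair 2, with log2 ratios of 0.31 and -0.13. The control of pair 2 was the highest of 4 mice for Ppara, and for Pparg the 4 mice lay within 0.31 of each other. With the dyes reversed between the pairs, mouse, dye and array cannot be told apart in these differences.

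In the sorted epithelium, Acadl and Cpt2 were past 1.5-fold lower in Axin2+ than in Axin2- cells, and the other members differed by less. Log2 ratios of Axin2+ over Axin2- were below 0 on both arrays for 8 of 9 members, where 41.7% of all genes were. The exception was Acadm, at -0.10 and 0.07. The median was -0.35 on array 1 and -0.39 on array 2, against all-gene medians of 0.02 and -0.03. Of the 9, 2 passed 1.5-fold downward with the same sign on each array, where 6.92% of all genes did, and none passed it upward (7.87% of all genes, 14.8% in either direction). Ratios of the 2 arrays ran together across all genes (r = 0.92), as repeats of the same RNA, and r says nothing about other mice.

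Acadl was lowest, at 9.10 in Axin2+ and 9.84 in Axin2- cells on array 1 and at 8.86 and 9.83 on array 2, with log2 ratios of -0.74 and -0.97, 1.81-fold lower in the mean. Cpt2 followed, at 11.51 and 12.23 on array 1 and at 11.61 and 12.10 on array 2, with ratios of -0.72 and -0.49, 1.52-fold lower. Angptl4 was at 7.54 and 7.91 on array 1 and at 7.45 and 8.09 on array 2, with ratios of -0.37 and -0.64, 1.42-fold lower. In all 3 genes the 2 Axin2+ channels lay below the 2 Axin2- channels. Which genes passed 1.5-fold depended on the source of the ratio. With the extraction software's own log ratios, Cpt2 stood at -0.55 and no longer passed, and Angptl4 stood at -0.77 and did.

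The remaining members differed less between the sorted pools. Acadvl had log2 ratios of -0.52 and -0.12, Ppara of -0.21 and -0.39, Cpt1a of -0.11 and -0.42, and Pparg of -0.07 and -0.08. The second Cpt1a probe gave -0.43 and -0.59, a wider difference than the first. In order of the mean ratio, Acadl (-0.86) and Cpt2 (-0.61) came first, and the 2 arrays of Cpt2 overlapped with those of Angptl4 (-0.51). Hadha, Acadvl, Ppara and Cpt1a, between -0.32 and -0.27, could not be ranked, as their 2 arrays overlapped.

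The probes of Hadha differed in sign. The RefSeq probe gave log2 ratios of Axin2+ over Axin2- of -0.35 and -0.29, at levels of 10.08 to 10.43. The clone probe A_52_P658044 gave 0.38 and 0.34, at dimmer signals of 6.77 to 7.19. The clone probe A_52_P338459 was not well above background in the Axin2- channel of either array, so its ratio has no measured denominator. The mean over the 3 probes, 0.08, includes both dim probes. Hadhb had ratios of -0.49 and -0.57, in the direction of the Hadha RefSeq probe.

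Markers of cell state moved with these ratios. All 8 colonocyte surface markers (such as Krt20, Slc26a3 and Guca2a) were below 0 in Axin2+ over Axin2- cells on each array (median -2.28), and their summed normalised intensity was 92537 to 97062 in Axin2+ and 236899 to 260960 in Axin2- cells. Of 7 measured goblet cell markers, 6 were below 0 on each array (median -1.18). Over all genes, 41.7% were below 0 on each array and 41.1% above 0. Of 7 measured stem cell markers, 6 were higher on both arrays, with a median of 1.12. Axin2, by whose reporter the cells were sorted, is 1 of these 6. The 6 proliferation markers were all higher, with a median of 0.65. The part of cell composition in the members' ratios was not tested. In the Rspo3 KO experiment the 7 measured stem cell markers were all lower in both pairs (23.9% of all genes), with a median of -0.61. Of these, 6 were well above background in each Rspo3 KO mouse and 7 in each control. Of 8 surface markers, 4 were measured, and 3 of those had opposite signs in the pairs (55.8% of all genes). The 4 measured B cell markers were all lower in both pairs (median -1.26), where 23.9% of all genes were. Only 2 of them were well above background in each Rspo3 KO mouse, against 4 in each control. The others thus passed the filter through the controls alone. Of 8 macrophage markers, 6 were above 0 in both pairs (median 0.24), and so were 5 of 6 smooth muscle markers (median 0.25), where 20.3% of all genes were. The part of these markers in the members' ratios was not tested.

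Beyond the 9 genes, 102 genes of 7 related lists were read, of which 91 were measured in the Rspo3 KO and 87 in the Axin2 experiment. In Rspo3 KO against control, 7 passed 1.5-fold upward (1.85% of all genes) and 3 downward (2.47%) in the mean with the same sign in each pair, and the median log2 ratio was 0.07. limma called 1 of the 91 (lower) at an adjusted p of 0.05 and 9 had an unadjusted p below that value, as had 0.241% and 4.64% of all genes. In Axin2+ against Axin2- cells, 3 passed 1.5-fold upward (7.87% of all genes) and 14 downward (6.92%), and the median log2 ratio was -0.16.

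The gene that passed the test was Slc27a2, a fatty acid transporter and very-long-chain acyl-CoA synthetase. It was lower in Rspo3 KO colon, with log2 ratios of -2.22 and -1.96 (mean -2.09 ± 0.19, SD, n = 2; limma, adjusted p = 0.0199 over all genes). In Axin2+ cells it was higher, at 0.63 and 0.75. The mean ran from -3.50 with the software's ratios to -1.13 with the background fitted to all spots, and the limma adjusted p from 2.9e-05 to 0.9996 over the alternatives. The call was also lost under median centring (limma, adjusted p = 0.897), without the filter (0.455) and with the mean over probes (0.0642). Of the other 14 measured genes of carnitine and acyl-CoA supply, none was called. Acsl4, which activates arachidonic acid, had log2 ratios of Rspo3 KO over control of 1.19 and 0.10. In Axin2+ cells the carnitine-acylcarnitine translocase Slc25a20 (-1.17 in the mean), the transporter Slc27a4 (-1.16) and the malonyl-CoA decarboxylase Mlycd (-0.60) were past 1.5-fold lower. Slc25a20 stands between Cpt1a and Cpt2 in the shuttle, and in Rspo3 KO against control its ratios were -0.06 and 0.51.

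None of 15 further genes of mitochondrial beta-oxidation passed 1.5-fold in Rspo3 KO against control (4.32% of all genes). In Axin2+ cells 1 of 16 did, Acad11 (-0.91 in the mean), where 6.92% of all genes passed it downward. Among 8 genes of ketone body synthesis and use, none passed it in Rspo3 KO against control. Of 7 measured in Axin2+ cells, the monocarboxylate carrier Slc16a1 alone was past 1.5-fold lower (-0.97 in the mean, 6.92% of all genes).

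In peroxisomal beta-oxidation, 2 of 15 measured genes passed 1.5-fold upward (1.85% of all genes) and 1 downward (2.47%) in Rspo3 KO against control. Abcd3, a transporter of the peroxisomal membrane, had log2 ratios of 1.04 and 0.96, with a limma adjusted p of 0.299. Decr2, a peroxisomal reductase for unsaturated chains, had ratios of 1.01 and 0.17. Crot, which makes carnitine esters of medium-chain acyl groups, had ratios of -0.89 and -0.83, with a limma adjusted p of 0.453. None of these was called. With the mean over probes, Abcd3 stood at 0.62, still past 1.5-fold, and Crot at -0.43, no longer past it. With the background fitted to all spots, Decr2 stood at 0.35 and no longer passed.

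Of 13 PPAR partners and coregulators, none passed 1.5-fold in Rspo3 KO against control (4.32% of all genes). In the pairs, 11 had opposite signs, where 55.8% of all genes did. Ppard, the PPAR not on the member list, had log2 ratios of 0.28 and -0.06 in Rspo3 KO over control and of -0.10 and -0.20 in Axin2+ over Axin2- cells. It was dim, did not pass the filter on both channels, and with the software's ratios its means stood at 0.57 and -0.73.

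The PPAR targets other than Angptl4 were mixed in direction. In Rspo3 KO against control, 8 of 15 measured targets were above 0 in both pairs (20.3% of all genes). Fabp4 was past 1.5-fold upward (1.85% of all genes) and Acot1 downward (2.47%), and limma called none. Fabp4, the adipocyte and endothelial fatty acid binding protein, had log2 ratios of 1.37 and 0.14, and its levels were 14.32 and 12.95 in pair 1 against 13.28 and 13.14 in pair 2. Pdk4, a kinase that restrains pyruvate oxidation, had ratios of 0.77 and -0.05. Plin2, a coat protein of lipid droplets, had ratios of 0.31 and 0.29. Acot1, a cytosolic thioesterase, had ratios of -0.999 and -0.53. In Axin2+ cells, 5 of 14 measured targets were past 1.5-fold lower (6.92% of all genes), among them Cidec (-1.60 in the mean), Fabp2 (-1.13) and Cyp4a10 (-0.97). One of the 5, Fabp1, entered the count through its Axin2- channels alone, as it was not well above background in Axin2+ cells. Acot1 was past 1.5-fold upward (1.40, 7.87% of all genes).

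Lpl and its cofactor stand closest to the known action of Angptl4. Lpl was at 11.13 in the Rspo3 KO mouse and 9.36 in the control of pair 1, and at 9.30 and 9.27 in pair 2, with log2 ratios of 1.77 and 0.03. Apoc2, the apolipoprotein that activates Lpl, had ratios of 1.61 and 0.20. In both genes the difference was in the pair with adipocyte marker signal, whose part was not tested. Lipg, the endothelial lipase, had ratios of 0.51 and 0.80. These 3 passed 1.5-fold upward in the mean (1.85% of all genes), of 10 measured genes of triglyceride hydrolysis and Lpl control. By limma, none of them was called. In Axin2+ cells, Mgll, which cleaves monoglycerides (-2.41 in the mean), Apoc2 (-1.58) and Lpl (-0.77) were past 1.5-fold lower. They were 3 of 9 measured genes of this list, where 6.92% of all genes passed it downward.

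The genes whose 4 array ratios lay closest to those of Angptl4, by Euclidean distance among 13621 genes measured in both experiments, were Hebp1, Stc2, Plek2, Paqr8 and Ccl28, at distances of 0.26 to 0.40. Hebp1, a heme-binding protein, had log2 ratios of 0.85 and 1.47 in Rspo3 KO over control and of -0.51 and -0.60 in Axin2+ over Axin2- cells. Ccl28, a mucosal epithelial chemokine, had ratios of 1.07 and 0.95, and of -0.51 and -0.49. Among the 5 genes closest to Cpt1a were Maf, NAP027724-1 (an array name with no RefSeq match), Srpr and C9orf72, at distances of 0.10 to 0.13, all closer than the nearest gene to Angptl4.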

How the data were processed

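Transcripts were measured on 4 Agilent arrays of the mouse genome, with 2 dyes each. The authors deposited, per the file headers of Agilent Feature Extraction (version 11.5.1.1), the mean signal intensity and local background intensity of each spot in both dyes (linear), with a corrected log10 ratio (Cy5 to Cy3) from that software. The series' value table deposited by the authors equals this log10 ratio. Colon RNA came by TRIzol in the labels and by a column kit in the methods.

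Background was corrected with limma (version 3.58.1, R version 4.3.3; normexp, offset 50, spots with an outlying background kept out of the fit), log2 ratios were normalised by loess (span 0.3), spots marked as outliers were left out, and spots of a probe were averaged. Levels are log2 intensities per channel after quantile scaling of the mean signal between the 2 arrays of an experiment. Genes were named through RefSeq (27761 probes by accession, 5531 by symbol, 460 by synonym, 7422 by the array files), with the brightest probe per gene, kept where both arrays of the experiment had 1 or more channels well above background. No member spot was saturated (0 spots). The Rspo3 KO ratios were tested against 0 with limma (lmFit and eBayes), adjusted by Benjamini-Hochberg over all genes, with 1 residual degree of freedom and 6.75 from the prior. This test was run 5 times on simulated data over 15372 genes, with 200 genes changed by 2 to 3 on the log2 scale; 97.5% to 100% of these were recovered and 5.24% to 12.4% of the calls were false. The Axin2 ratios were not tested. Both arrays of an experiment share a slide, and 2 arrays per experiment limit the precision.

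The members and all lists were chosen with earlier results of these data known. Named were all members, list genes called by limma, up to 4 genes of a list with the widest change past 1.5-fold, a defining gene of each list, the 5 nearest genes to Angptl4 and to Cpt1a, and marker genes; some of these genes are not reported here. Levels of adipocyte markers without the filter were added after the values were seen. Alternatives were the software's ratios, the value table, no background correction, offset 16, background fitted to all spots, median centring, other filters on dim probes, the mean over probes, each array left out, and other call rules.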

Additional observations from a re-analysis of the deposited data

How the results depend on the processing

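Not all of the 9 alternatives of source, background, scaling, filter and probe could move a member. The value table repeats the software's ratios, and the other filters on dim probes left the Rspo3 KO ratio of every member as it was. The mean over probes could change only Cpt1a and Hadha. Of the 9 members, the mean ratio kept its sign in Rspo3 KO over control under all 9 alternatives, and Angptl4 ran from 1.07 to 1.20. In Axin2+ over Axin2- cells the exceptions were Acadm, at 0.01 with the software's ratios and the value table, and Hadha, at 0.08 as the mean over its probes. Per array this was less stable: under median centring, which leaves the dye effect in each array, 8 of 9 members had opposite signs in the 2 Rspo3 KO pairs (Angptl4 stood at 1.71 and 0.69), and the count of members past 1.5-fold lower in Axin2+ cells fell to 0, since all 9 had opposite signs on those 2 arrays. The members' median ratio in Axin2+ cells was -0.35 with the software's ratios, the value table and offset 16, and -0.45 under median centring.

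The number of genes called by limma in the Rspo3 KO experiment was 37. It was 128 with the software's ratios, the value table and offset 16, and 70 without background correction. It fell to 1 with the background fitted to all spots, 8 under median centring and 5 with the mean over probes. Without the filter on dim probes it was 0, with 1204 of 27118 genes at an unadjusted limma p below 0.05. Another rule, without limma, asked for 1.5-fold in the mean and the same sign in each pair, and 664 genes met it. The 1 pathway gene called, Slc27a2, was lost (0 called) under background fitted to all spots, where its ratio was -1.13, and under median centring, no filter and the mean over probes, where its ratio was -2.10, -2.09 and -2.09 against -2.09. The cause was not tested. Pathway genes past 1.5-fold upward in Rspo3 KO (7) were 12 with the software's ratios and the value table, 4 with the background fitted to all spots and 2 under median centring, and those past it downward (3) were 5 with the software's ratios and the value table. In Axin2+ cells, 5 pathway genes in place of 3 passed 1.5-fold upward with the software's ratios and the value table. The pathway median in Axin2+ cells (-0.16) was -0.21 with the software's ratios and the value table, -0.16 without background correction, -0.18 with offset 16, -0.22 under median centring, -0.10 without the filter and -0.14 as the mean over probes.

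With 1 pair at a time there was no test. The members' median in Rspo3 KO over control then ran from 0.091 (without pair 1) to 0.18 (without pair 2), and members past 1.5-fold upward from 2 to 3. Pathway genes past it ran from 4 to 14 upward and from 6 to 7 downward. With 1 Axin2 array at a time the members' median ran from -0.39 to -0.35 and the pathway median from -0.14 to -0.13. No paired analysis was possible because each array already sets 1 Rspo3 KO mouse against 1 control mouse, or 1 pool against the other, and no further block is left to fit.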

Other observations

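Fabp1, a fatty acid binding protein of enterocytes and hepatocytes and a PPAR target, did not pass the filter on dim signal in the Rspo3 KO experiment, and was singled out after its values were seen. In the 4 mice of the Rspo3 pairs it was well above background in the control of pair 2 alone, at a log2 normalised intensity of 10.11, against 6.51 in the Rspo3 KO mouse of that pair and 6.06 and 6.27 in the Rspo3 KO mouse and the control of pair 1. In the sorted cells it was well above background in the Axin2- channel of both arrays (6.67 and 7.04) and in neither Axin2+ channel (5.87 and 6.33). The fatty acid transporter Cd36, another PPAR target, had log2 ratios of Rspo3 KO over control of 0.65 and 0.21, and was not well above background in the sorted cells.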
